A study of Homo sapiens with 30 samples.

Results

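The 9 genes described here belong to the machinery by which a cell notices nucleic acid that should not be there: EIF2AK2, ADAR, IFIH1, RIGI, TLR3, MAVS, IRF3, ISG15 and IFI6. They were taken by name, and all 9 have a row in each of the 3 deposited gene tables, which hold 62710 genes for IMR32 and 57905 each for NGP and SK-N-BE(2)c. Under the minimum level used for testing, a mean normalized count of at least 10 over the libraries of a line, 6 of the 9 could be tested in IMR32, 5 in SK-N-BE(2)c and 6 in NGP. IFIH1, TLR3 and ISG15 fell below that minimum in every line, and RIGI did so in SK-N-BE(2)c.

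Antisense oligonucleotides (ASOs) are short synthetic strands that pair with an RNA inside the cell, and they are themselves foreign nucleic acid delivered with a lipid. The study put ASOs at 100 nM with Lipofectamine into established neuroblastoma lines, either aimed against NESPR, a long non-coding RNA, (ASO1, ASO2, ASO10) or a negative control ASO (NCA). IMR32 received ASO1, ASO2 or NCA, with 4 libraries each, and NGP and SK-N-BE(2)c received ASO2, ASO10 or NCA, with 3 libraries each. NCA libraries were therefore transfected too, and untransfected cells are not analysed here. The labels do not say whether replicates were separate cultures, so p-values measure the spread between these libraries, which may be technical. In NGP and SK-N-BE(2)c, replicate 1 of the control carries another column name than replicates 2 and 3, and whether that marks another control oligonucleotide is not settled by the labels.

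The depth of a library, in recovered reads, was 9393587 to 13932379 for IMR32, 11497829 to 15060356 for SK-N-BE(2)c and 11591178 to 13795561 for NGP. The labels name the target only as NESPR, which was read here as the gene LINC00682 from general knowledge of the study and not from the files, so the following values check the labels only as far as that match is right. LINC00682 was at 72.7% of its NCA mean with ASO1 and 56.5% with ASO2 in IMR32, 60.2% with ASO2 and 64.7% with ASO10 in NGP, and 62.0% and 59.2% in SK-N-BE(2)c. The summed level of 8 neuroblastoma markers in NGP was 31155 to 32763 normalized counts with NCA, 28134 to 28884 with ASO2 and 23046 to 24029 with ASO10. In the same order it was 22203 to 24742, 19589 to 21346 and 18083 to 18922 in SK-N-BE(2)c. In IMR32 it was 27665 to 29043 with NCA, 24983 to 27486 with ASO1 and 26540 to 28312 with ASO2. ASO1 lay below NCA there without overlap, and ASO2 overlapped NCA. Tested singly (limma, adjusted p under 0.05), the 8 markers moved both ways with ASO1 and ASO2. With ASO2, 3 rose and 5 fell in SK-N-BE(2)c, and 2 rose and 5 fell in NGP. With libraries scaled to the same total, 1 rose and 5 fell in both. For ASO10 the counts were 0 and 6 in SK-N-BE(2)c and 0 and 7 in NGP. IMR32 had 1 and 3 with ASO1, and 1 and 2 with ASO2. Of all genes, 13.6% to 33.6% were higher and 14.4% to 33.4% lower in these comparisons. The sum of 8 immune cell markers stayed at or below 152 normalized counts, but it was higher with ASO10 than with NCA, without overlap, in NGP (114 to 152 against 26.7 to 45.2) and SK-N-BE(2)c (53.0 to 57.3 against 28.3 to 31.3). Genes with at least 1 read numbered 23722 to 23934 with ASO10 against 21615 to 22030 with NCA in NGP, and 21518 to 21815 against 19939 to 20327 in SK-N-BE(2)c. The authors scaled IMR32 apart from the other lines, so IMR32 levels are compared only within IMR32. A transcript counted in bulk RNA does not separate fewer producing cells from less RNA per cell.

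In the classical scheme, double-stranded RNA in the cytosol is bound by the helicases RIG-I (RIGI) and MDA5 (IFIH1), which signal through the mitochondrial adaptor MAVS to the transcription factor IRF3. TLR3 reads double-stranded RNA in endosomes. IRF3 turns on type I interferon, and interferon then raises a large set of genes through a promoter element called the ISRE. ISG15, a ubiquitin-like modifier, and IFI6, a small membrane protein, belong to that set. The kinase PKR (EIF2AK2) halts translation when it binds double-stranded RNA, and the deaminase ADAR1 (ADAR) edits adenosines in the cell's own double-stranded RNA, which lowers its recognition by MDA5 and PKR.

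The letters of that promoter element were found in some of the 8 genes with a promoter row and not in others. Windows that carry them are shown for ISG15, IFI6, IFIH1 and EIF2AK2. RefSeq promoters of GRCh38.p14, 250 bases before to 50 bases after a start, were used for 8 of the 9 genes (not IRF3), with 10 rows, and were searched for GAAANNGAAA and, for the other strand, TTTCNNTTTC, overlapping matches included. Of 35116 promoters in the table, 3.57% held a match, and 5 of the 10 rows did. By gene, 4.38% of 27305 genes held a match, and 5 of the 8 did. Capitals mark the bases in a match, and each window is written 5′ to 3′ along the gene.
ISG15: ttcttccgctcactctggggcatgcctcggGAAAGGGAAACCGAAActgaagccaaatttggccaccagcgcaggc
IFI6: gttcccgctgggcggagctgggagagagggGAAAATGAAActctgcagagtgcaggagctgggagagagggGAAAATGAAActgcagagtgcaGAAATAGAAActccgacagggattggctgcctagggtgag
IFIH1: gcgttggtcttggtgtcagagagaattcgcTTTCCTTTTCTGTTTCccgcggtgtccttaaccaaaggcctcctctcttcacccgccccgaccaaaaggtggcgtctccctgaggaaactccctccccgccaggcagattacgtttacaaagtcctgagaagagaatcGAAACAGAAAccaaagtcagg
EIF2AK2: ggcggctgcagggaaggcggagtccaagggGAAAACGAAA
The windows lie at chr1:1013354-1013429 on the plus strand (ISG15), and on the minus strand at chr1:27672246-27672378 (IFI6), chr2:162318685-162318873 (IFIH1) and chr2:37156977-37157016 (EIF2AK2). ISG15 has 2 overlapping matches that begin 113 bases before the start, IFI6 and IFIH1 have 3 matches each, and EIF2AK2 has 1 match that spans the start. TLR3 has 1 match, at its start. The promoters of ADAR (3 rows), RIGI and MAVS held none of these letters, which says only that this window lacks them. A match describes the sequence and is not a measured binding site.

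The 9 genes span the range from among the most abundant transcripts to 0 reads. Levels between genes were compared as normalized counts per kb of exon, with exon length taken over all GENCODE release 29 transcripts of a gene. In NCA libraries ADAR came first in each line, at 580 ± 19.3 per kb (SD, n = 4) in IMR32, 799 ± 26.9 (n = 3) in NGP and 855 ± 21.4 (n = 3) in SK-N-BE(2)c. That placed ADAR at percentiles 96.6, 96.1 and 95.9 of the tested genes of those lines. EIF2AK2 and MAVS were next in IMR32, at 96.6 ± 2.56 and 93.3 ± 3.02 per kb, and their ranges over libraries overlapped. NGP had IRF3 at 138 ± 17.0, EIF2AK2 at 105 ± 5.37 and MAVS at 56.8 ± 0.422 per kb, with no overlap between neighbours. EIF2AK2 (120 ± 6.11), IRF3 (109 ± 10.7), MAVS (108 ± 11.8) and IFI6 (97.6 ± 27.8) formed a run in SK-N-BE(2)c in which each overlapped the next. IFI6 was lower in NGP than in SK-N-BE(2)c, at 28.3 ± 5.59 per kb. In IMR32, which was scaled apart, it stood at 12.7 ± 2.60.

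The cytosolic and endosomal RNA receptors were low in every line, and in NGP ISG15 lay below RIGI, at 0 reads. RIGI stood at 4.10 ± 1.43 per kb in IMR32, 1.16 ± 0.405 in SK-N-BE(2)c and 7.48 ± 1.99 in NGP, and IFIH1 and TLR3 had 0 reads in every NCA library of all 3 lines. With a floor of 3 reads per library, a count of 0 in an NCA library allows a level of up to 0.240 to 0.319 CPM (reads scaled to 1e6 per library) in IMR32, 0.231 to 0.252 in SK-N-BE(2)c and 0.218 to 0.250 in NGP. Neither receptor was detectable at that depth in control cells. Floors cover counting error only, because reads without molecular identifiers are not independent molecules.

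MAVS, the adaptor below both helicases, was lower than in NCA in 5 of the 6 comparisons with control. In NGP its NCA libraries held 668, 673 and 664 normalized counts, its ASO2 libraries 261, 366 and 271, and its ASO10 libraries 350, 382 and 372. Neither ASO group overlapped the control. The log2 fold change, on the log2(value + 1) scale, was -1.17 ± 0.10 (SE) with ASO2 and -0.86 ± 0.10 with ASO10 (limma, adjusted p = 4.35e-10 and 9.51e-08), that is 55.6% and 44.9% lower.

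In SK-N-BE(2)c MAVS had 1425, 1251 and 1150 normalized counts with NCA, 636, 660 and 563 with ASO2, and 968, 950 and 949 with ASO10. All ASO libraries lay below all NCA libraries, and ASO2 below ASO10. The fall was 51.3% with ASO2 (log2 fold change -1.04 ± 0.08, limma adjusted p = 1.77e-12) and 24.8% with ASO10 (-0.41 ± 0.08, adjusted p = 3.83e-05). The IMR32 libraries gave 1122, 1050, 1092 and 1127 with NCA, 1113, 1048, 999.98 and 991 with ASO1, and 851, 851, 844 and 787 with ASO2. Only the ASO2 group lay apart from NCA there, 24.1% lower (-0.40 ± 0.05, limma adjusted p = 9.13e-06), whereas ASO1 gave -0.08 with a 95% interval from -0.19 to 0.02 (adjusted p = 0.255). ASO1 and ASO2 differed directly in IMR32 by 0.32 ± 0.05 in log2 (limma adjusted p = 0.000148).

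EIF2AK2, the PKR gene, was lower with every ASO except ASO2 in IMR32. IMR32 libraries held 1078, 1015, 1027 and 1034 normalized counts with NCA, 1008, 735, 828 and 871 with ASO1, and 1261, 1038, 1020 and 1046 with ASO2. The ASO1 libraries were all below the controls, the highest of them by a small margin, and the ASO2 libraries overlapped them. ASO1 gave a log2 fold change of -0.28 ± 0.08 (limma adjusted p = 0.00989, 17.6% lower) and ASO2 one of 0.07 with an interval from -0.10 to 0.23 (adjusted p = 0.555). The direct difference between ASO1 and ASO2 was -0.35 ± 0.08 (adjusted p = 0.00291).

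In NGP, EIF2AK2 had 1073, 1120 and 1188 normalized counts with NCA, 978, 872 and 952 with ASO2 and 762, 746 and 888 with ASO10. Both ASO groups lay below NCA and overlapped each other. The fold changes were -0.27 ± 0.07 with ASO2 and -0.50 ± 0.07 with ASO10 (limma adjusted p = 0.00296 and 3.25e-06). SK-N-BE(2)c showed 1299.6, 1226 and 1357 with NCA, 1157, 1136 and 1199.7 with ASO2 and 991, 899 and 985 with ASO10. The order NCA, ASO2, ASO10 held with no overlap. ASO10 gave -0.43 ± 0.06 (adjusted p = 1.60e-06), and ASO2 gave -0.15 ± 0.06 with an adjusted p of 0.0390 in limma that rose to 0.0539 with DESeq2 on the recovered reads. Without ASO2 replicate 1 or 2, or without NCA replicate 1 or 3, the ASO2 call was also lost, with adjusted p from 0.0744 to 0.143.

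**Figure D1:**
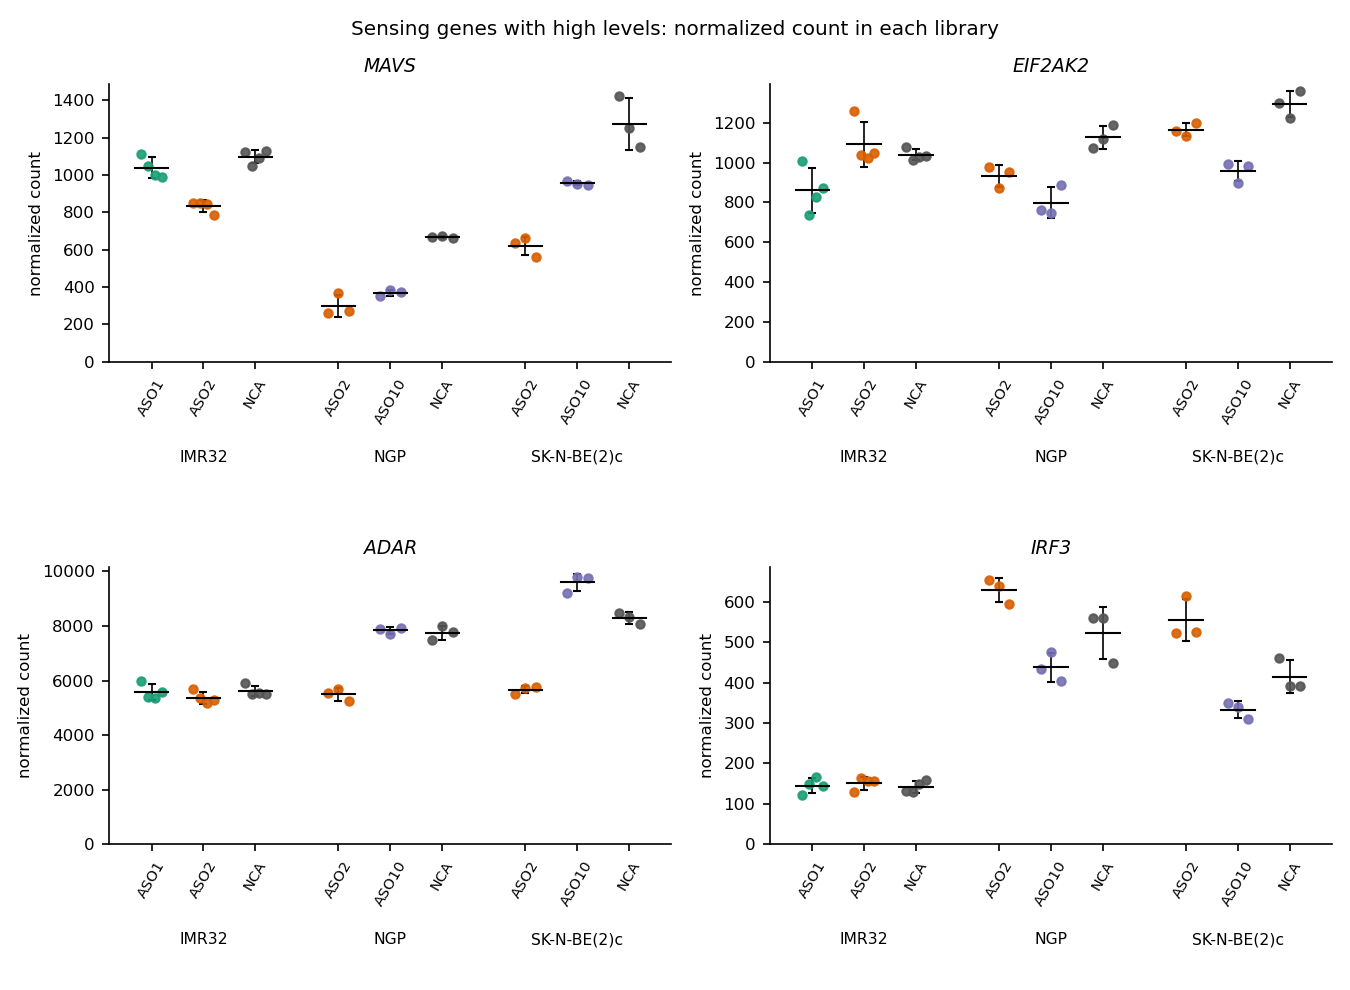
Normalized count (y axis, from 0) of MAVS, EIF2AK2, ADAR and IRF3 in each library (points), by ASO and cell line (x axis), with the group mean (horizontal line) and SD (error bar), n = 4 in IMR32 and 3 in the other lines. ADAR had means of 5493 (NGP) and 5666 (SK-N-BE(2)c) with ASO2 against 7742 and 8288 with NCA, while IRF3 lay above NCA with ASO2 and below it with ASO10 in those lines.

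ADAR separated ASO2 from ASO10 in both lines that received ASO10. In NGP it had 7469, 7989 and 7768 normalized counts with NCA, 5535, 5701 and 5244 with ASO2, and 7871, 7703 and 7938 with ASO10. ASO2 libraries lay below all others, and ASO10 libraries lay within the range of NCA or close to it. ASO2 gave -0.50 ± 0.05 (limma adjusted p = 1.62e-09, 29.1% lower) and ASO10 0.02 with an interval from -0.08 to 0.11 (adjusted p = 0.761).

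The 3 groups of SK-N-BE(2)c did not overlap for ADAR: NCA held 8469, 8335 and 8061, ASO2 5507, 5733 and 5759, and ASO10 9224, 9808 and 9763 normalized counts. ADAR fell by 0.55 ± 0.05 in log2 with ASO2 and rose by 0.21 ± 0.05 with ASO10 (limma adjusted p = 5.29e-11 and 0.000386). In IMR32 all 12 ADAR values lay between 5171 and 5970, with log2 fold changes of -0.01 (ASO1, interval -0.11 to 0.08) and -0.07 (ASO2, interval -0.16 to 0.03). Counts are per gene, so the interferon-inducible and the constitutive forms of ADAR1 are not told apart.

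IRF3, the transcription factor at the end of the relay, moved in opposite directions with ASO2 and ASO10. NGP libraries held 560.0, 559 and 448 normalized counts with NCA, 654, 638 and 595 with ASO2 and 434, 475 and 404 with ASO10. ASO2 lay above NCA, and ASO10 overlapped NCA through NCA replicate 3. The fold changes were 0.27 ± 0.09 with ASO2 and -0.25 ± 0.09 with ASO10 (limma adjusted p = 0.0116 and 0.0218). Both calls were fragile: without NCA replicate 3 the ASO2 change was 0.17 (adjusted p = 0.0864), without ASO2 replicate 1 it had an adjusted p of 0.0544, and with libraries scaled to the same total one of 0.0593. The ASO10 change lost its call without ASO10 replicate 1 or 3 or NCA replicate 1 or 2 (adjusted p 0.0580 to 0.119).

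In SK-N-BE(2)c IRF3 stood at 461, 392 and 390.3 with NCA, 524, 615 and 525 with ASO2 and 351, 341 and 309 with ASO10, and no groups overlapped. IRF3 rose by 0.42 ± 0.09 with ASO2 and fell by 0.31 ± 0.09 with ASO10 (limma adjusted p = 0.000215 and 0.00466). Neither ASO moved it detectably in IMR32, where the 12 values ran from 122 to 167 (0.03, interval -0.19 to 0.25, with ASO1, and 0.09, interval -0.13 to 0.32, with ASO2). IRF3 shares exon sequence with BCL2L12 on the opposite strand, and EIF2AK2 with GPATCH11. The sources used here do not say whether counting used strand, so these counts are uncertain to that extent. BCL2L12 moved by -0.65 in NGP with ASO2 and 0.51 with ASO10 (limma adjusted p = 0.00434 and 0.0235), and by -0.09 and 0.36 in SK-N-BE(2)c (adjusted p = 0.639 and 0.0624), at mean levels of 66.6 and 79.2 normalized counts. GPATCH11 rose by 0.24 and 0.35 with ASO2 in NGP and SK-N-BE(2)c (adjusted p = 0.00415 and 0.000300), at means of 855 and 773.

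**Figure D2:**
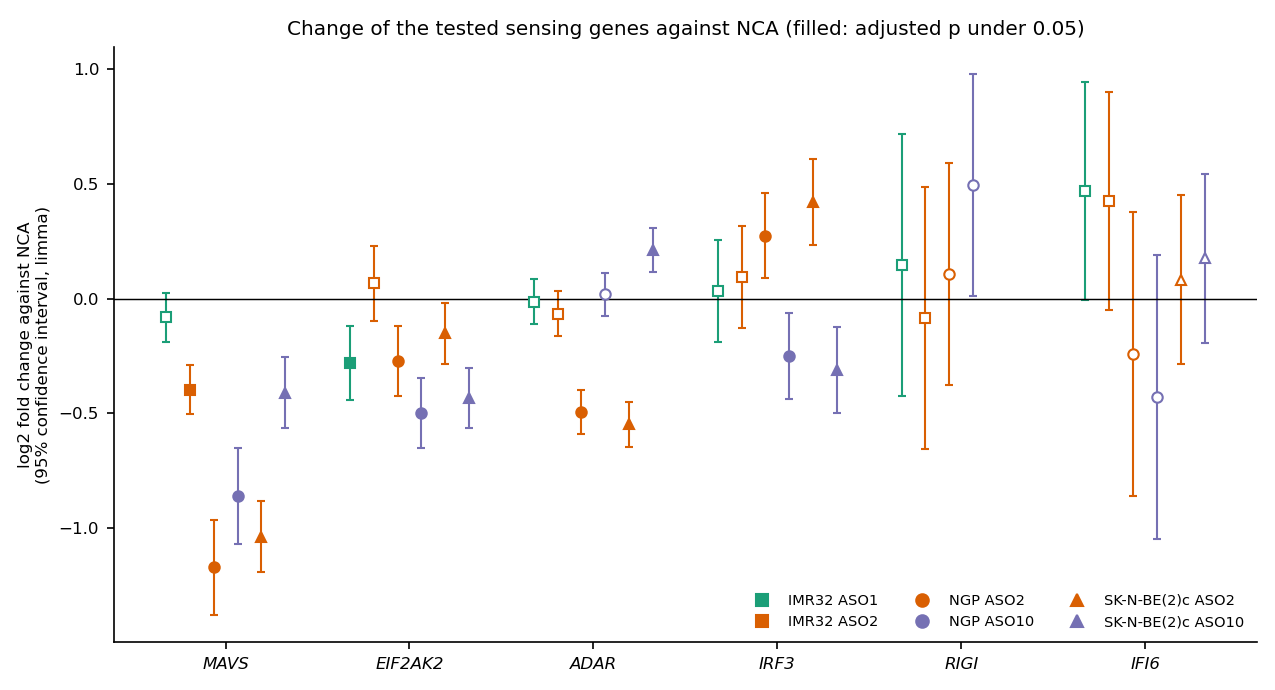
Log2 fold change against NCA (y axis, log2(value + 1) scale) of the tested genes in the 6 comparisons with control, with 95% confidence intervals from limma; colour gives the ASO, shape the line, and filled symbols an adjusted p under 0.05. All MAVS points lie at or below 0, IRF3 points split by ASO in NGP (0.27 and -0.25) and SK-N-BE(2)c (0.42 and -0.31), and RIGI and IFI6 have no filled symbol.

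Counted over the genes, 1 of the 6 tested members was called in IMR32 with ASO1 and 1 with ASO2, both lower; over all 17309 tested genes 28.0% and 32.4% were called. In NGP, 4 of 6 were called with ASO2 (1 higher, 3 lower) and 3 of 6 with ASO10 (all lower), against 58.7% and 54.4% of 14440 genes. In SK-N-BE(2)c, 4 of 5 were called with each ASO (1 higher, 3 lower), against 67.0% with ASO2 and 58.9% with ASO10 of 13556 genes. These shares are near the background, so the number of members called is not a result about them. Groups did not overlap for 1, 1, 4, 3, 4 and 4 members in that order, against 27.6%, 30.4%, 62.4%, 59.1%, 69.3% and 64.7% of all tested genes. Median log2 fold changes over the tested members were 0.01 and -0.00 in IMR32, -0.26 and -0.34 in NGP and -0.15 and -0.31 in SK-N-BE(2)c, and over all tested genes they lay between -0.03 and 0.01. The comparisons of a line share their NCA libraries. With libraries scaled to the same total, the median of all genes in SK-N-BE(2)c with ASO2 moved from -0.02 to -0.15, and the calls went from 4555 higher and 4523 lower to 3505 and 5612; the members called there stayed 1 higher and 3 lower. In NGP with ASO2 that scaling left 0 members higher and 3 lower.

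Directly between the NESPR ASOs, 2 of 6 members differed in IMR32 (21.9% of all genes), EIF2AK2 and MAVS as given above. Between ASO2 and ASO10, 4 of 6 differed in NGP (58.6% of genes) and 4 of 5 in SK-N-BE(2)c (65.4%). ADAR was lower with ASO2 than with ASO10 by 0.51 ± 0.05 and 0.76 ± 0.05 in log2, and IRF3 was higher by 0.52 ± 0.09 and 0.73 ± 0.09, in NGP and SK-N-BE(2)c respectively (limma, adjusted p at most 2.08e-05 for these). EIF2AK2 was higher with ASO2 by 0.28 ± 0.06 in SK-N-BE(2)c (adjusted p = 0.000372) and 0.23 ± 0.07 in NGP (adjusted p = 0.01005). MAVS was lower with ASO2 than with ASO10, by 0.63 ± 0.08 in SK-N-BE(2)c (adjusted p = 3.54e-08) and 0.31 ± 0.10 in NGP (adjusted p = 0.0104). Leaving out ASO2 replicate 1 of NGP ended both of the last calls in that line, for EIF2AK2 (adjusted p = 0.0591) and MAVS (adjusted p = 0.0923), and reduced the members called from 4 to 2. The EIF2AK2 call in NGP was also lost without ASO10 replicate 1 or 2 (limma adjusted p = 0.0555 and 0.0620). It was lost too with libraries scaled to the same total (0.0530). The MAVS call there was also lost without ASO2 replicate 3 (limma adjusted p = 0.0670). For both genes the ASO2 and ASO10 libraries of NGP overlapped.

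Whether an ASO acted differently in NGP and SK-N-BE(2)c was tested as the difference of its effects. For ASO2, 0 of 6 members differed (limma; 16.7% of all genes did), and none had an unadjusted p under 0.05. Intervals of the difference, SK-N-BE(2)c minus NGP, were -0.08 to 0.32 for EIF2AK2, -0.18 to 0.07 for ADAR, -0.15 to 0.42 for MAVS and -0.13 to 0.42 for IRF3. For ASO10, 2 of 6 differed (16.9% of all genes), ADAR by 0.19 ± 0.06 and MAVS by 0.45 ± 0.14 (limma adjusted p = 0.0334 and 0.0265). Several alternatives ended these 2 calls, among them TMM scaling for ADAR (adjusted p = 0.0505) and leaving out SK-N-BE(2)c NCA replicate 3 for both (adjusted p = 0.0781 and 0.0831).

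No comparison with control was called for RIGI or IFI6. RIGI had 34.6, 23.0 and 40.0 normalized counts with NCA in NGP, 31.6, 39.5 and 32.3 with ASO2 and 40.8, 45.6 and 49.3 with ASO10. The ASO10 libraries lay just above the NCA libraries (0.49, interval 0.01 to 0.98, limma adjusted p = 0.0787), and the adjusted p was 0.0334 without NCA replicate 3. RIGI ran from 11.1 to 25.1 in the 12 IMR32 libraries, with adjusted p of 0.733 and 0.845, and from 1 to 12 reads in SK-N-BE(2)c.

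IFI6 in IMR32 was at 11.8, 8.63, 9.88 and 13.8 normalized counts with NCA, 17.3, 13.3, 13.3 and 18.4 with ASO1 and 15.8, 17.0, 13.5 and 13.7 with ASO2. The groups overlapped through the highest control library, and the fold changes of 0.47 (interval -0.01 to 0.94) and 0.42 (-0.05 to 0.90) did not pass the test (limma adjusted p = 0.138 and 0.166). In NGP it ran from 15.2 to 29.1 and in SK-N-BE(2)c from 59.8 to 108, with all groups overlapping and adjusted p from 0.233 to 0.701. No ASO changed IFI6 by an amount these libraries could resolve.

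ISG15 was the one low member with a large difference between groups. In NGP it had 0 reads in all 3 NCA and all 3 ASO2 libraries, and 13, 13 and 8 reads with ASO10, or 13.2, 12.4 and 7.89 normalized counts. Against a floor of 3 reads per library the ASO10 mean was at least 3.96-fold higher than with NCA. ISG15 in NGP is a description without a test, because it could enter one at a lower minimum only through the group in which it was high. The 34 reads came from the 3 libraries that also had the most genes detected in that line (23722 to 23934, against 21253 to 22030 in the others), at 12126517 to 12954564 reads. What part that wider gain has in the ISG15 reads was not tested.

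In SK-N-BE(2)c ISG15 was present in every library, at 4.19, 10.1 and 3.86 normalized counts with NCA, 15.5, 11.8 and 9.60 with ASO2 and 8.37, 11.3 and 2.58 with ASO10. ASO2 and NCA overlapped through NCA replicate 2 (adjusted p = 0.0966 in limma on genes with a mean of at least 1), and ASO10 gave an adjusted p of 0.791. IMR32 libraries ran from 3.54 to 11.3 normalized counts, with adjusted p of 0.574 (ASO1) and 0.861 (ASO2).

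The gene next to ISG15 on the same strand, AGRN, was at 38.3 ± 9.30 normalized counts with NCA and 47.1 ± 5.62 with ASO10 in NGP (limma adjusted p = 0.293), and RNF223, one gene further and on the other strand, at 3.13 ± 0.494 and 15.1 ± 1.19. Among the immune cell markers, LYZ (lysozyme) stood at 21.5 ± 1.35 with NCA and ran from 80.9 to 111 with ASO10 in NGP, with PTPRC, CD3E and NKG7 at 0 reads in every NGP library. Of the 8 immune markers 2 could be tested in NGP, LYZ among them. With ASO10 both were called higher, beside 26.8% of all genes. With ASO2 1 was called higher and 1 lower, beside 30.6% and 28.1%. The summed level of the 8 immune markers ran from 26.7 to 45.2 normalized counts with NCA, 39.5 to 48.9 with ASO2 and 114 to 152 with ASO10. What part such genes have in the ISG15 values was not tested.

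IFIH1 and TLR3 yielded single reads. IFIH1 had 2, 0, 1 and 2 reads with ASO1 in IMR32, 2, 0 and 5 reads with ASO10 in SK-N-BE(2)c, and 0 in all other libraries, NGP included. TLR3 had 1, 0, 1 and 0 reads with ASO1 in IMR32, 1, 1 and 0 with ASO10 in NGP, and 0 elsewhere. Every library with a read of either gene had a NESPR ASO, but the counts do not exceed the floor of 3 reads except in 1 library.

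**Figure D3:**
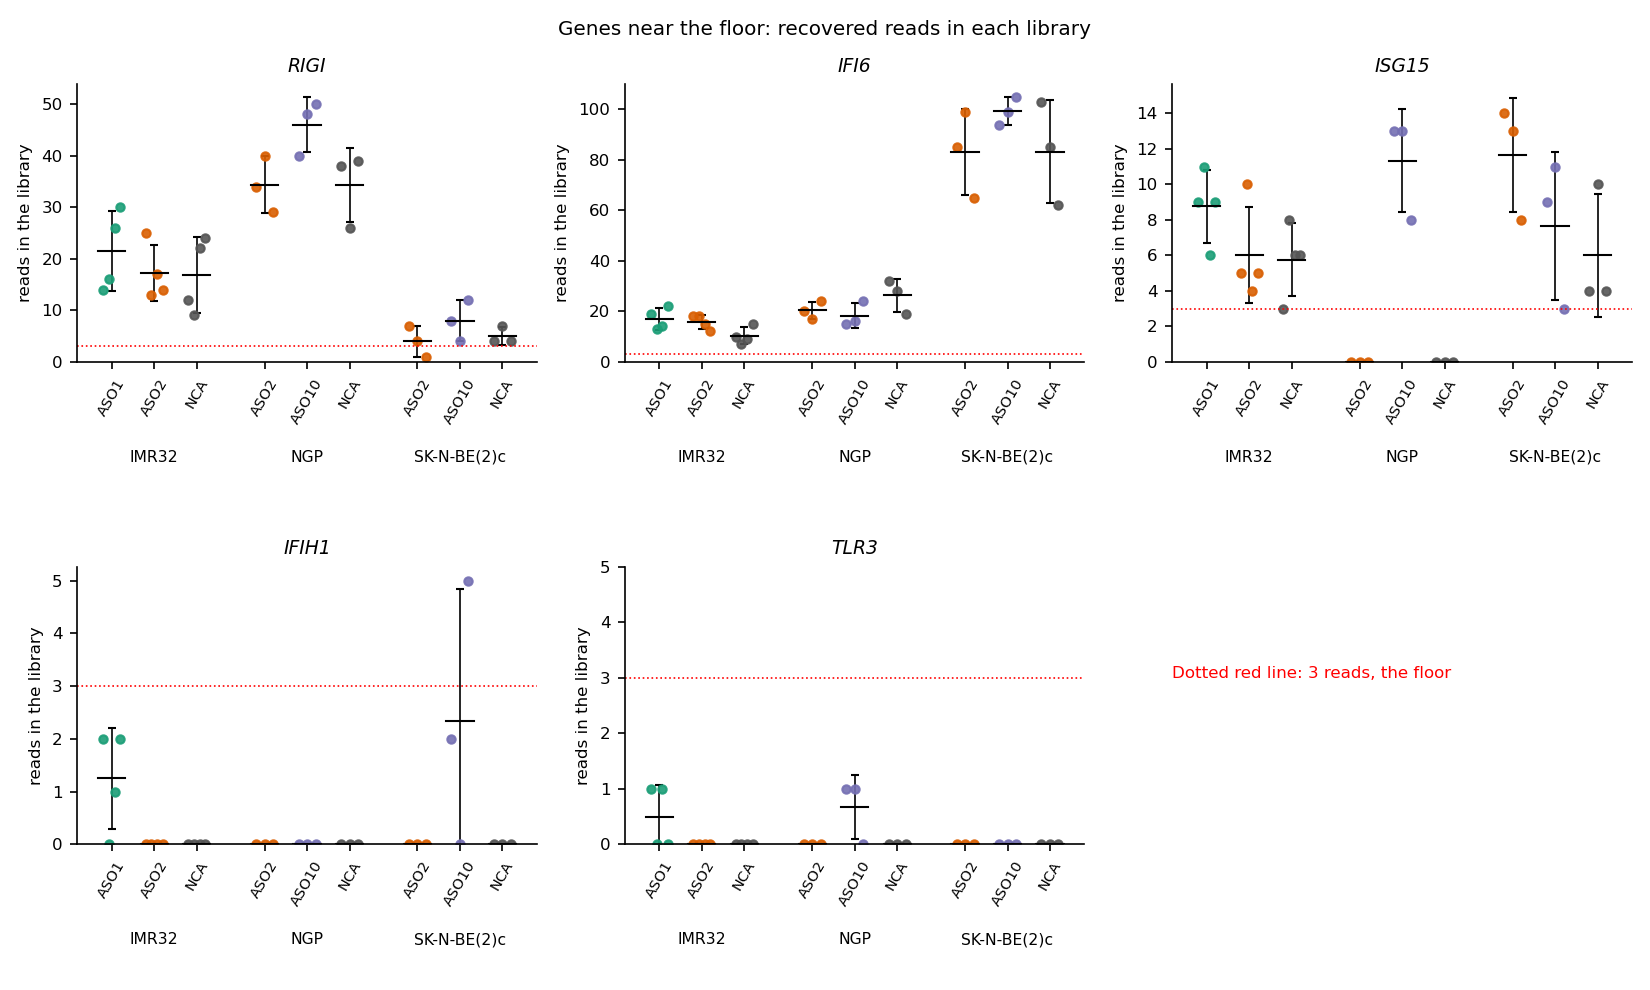
Recovered reads (y axis, from 0) of RIGI, IFI6, ISG15, IFIH1 and TLR3 in each library (points), by ASO and line (x axis), with group mean (line) and SD (bar, clipped at 0), n = 4 in IMR32 and 3 elsewhere; the dotted line marks the floor of 3 reads. ISG15 is at 0 in the 6 NGP libraries with ASO2 or NCA and at 8 to 13 reads with ASO10, and IFIH1 and TLR3 lie at or near 0.

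Type I, II and III interferon genes themselves were almost silent. Of 21 interferon genes, 20 had at most 3 reads in every library, and none could be tested. The exception was IFNA5, which belongs to a family of near-identical copies and is uncertain for that reason: its highest library held 7 reads with ASO10 in NGP and 5 reads with ASO10 in SK-N-BE(2)c. Summed over all 21 genes, NCA libraries of NGP and SK-N-BE(2)c held 0 reads, and the ASO10 libraries held 1.90 to 8.15 normalized counts in NGP and between 0 and 6.51 in SK-N-BE(2)c. The ASO10 libraries of both lines also had more genes detected in all, as given above, and its part in these reads was not tested. IFNB1, the interferon gene that IRF3 is best known for driving, had 1 read in the series.

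Other RNA sensors and regulators, formed a list of 23 genes. DHX58, which encodes LGP2, the third RIG-I-like helicase, rose with ASO10 from 14.3 ± 7.37 to 123 ± 16.6 normalized counts in NGP and from 5.23 to 10.1 over the NCA libraries to 99.7 ± 23.3 in SK-N-BE(2)c (3.11 and 3.50 on the log2 scale, limma adjusted p = 5.95e-10 and 3.58e-11). The rise with ASO2 was 1.28 and 1.48 (adjusted p = 0.000271 and 5.04e-05), and the IMR32 values of 0.63 and 0.67 did not pass (adjusted p = 0.152 and 0.111). In SK-N-BE(2)c the NCA libraries of DHX58 lay near or below the minimum of 10. Its calls there rest on the ASO libraries in which it was high and are not read as a result. ADARB1, the second editing deaminase, rose with ASO2, where ADAR fell, by 0.74 in SK-N-BE(2)c and 0.95 in NGP. With ASO10 it fell by 0.68 in SK-N-BE(2)c, where ADAR rose, and by 0.44 in NGP, where ADAR was not called. DHX15, a helicase, fell by 1.09 and 0.93 with ASO10 and rose by 0.29 and 0.33 with ASO2 (limma adjusted p at most 0.000583 for ADARB1 and 0.000131 for DHX15). ZNFX1 rose in all 6 comparisons, by 0.19 to 0.70.

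Over that list, 3 of 14 tested genes rose and 0 fell in IMR32 with ASO1, and 9 rose and 1 fell with ASO2. In NGP 10 of 15 rose and 0 fell with ASO2 and 7 rose and 3 fell with ASO10, and in SK-N-BE(2)c 12 of 18 rose and 2 fell with ASO2 and 7 rose and 5 fell with ASO10. Scaled to the same total, the splits were 4 and 0 in IMR32 with ASO1 and 11 and 3 in SK-N-BE(2)c with ASO2. In NGP that scaling gave 8 and 0 with ASO2 and 6 and 3 with ASO10. The shares of all genes called higher were 13.6% (ASO1) and 17.6% (ASO2) in IMR32, 30.6% (ASO2) and 26.8% (ASO10) in NGP and 33.6% (ASO2) and 27.8% (ASO10) in SK-N-BE(2)c, and those called lower 14.4% and 14.8%, 28.1% and 27.6%, and 33.4% and 31.1%. The median log2 fold changes of the list were 0.07 and 0.23, 0.23 and 0.10, and 0.34 and 0.06. Because the minimum level was set on the mean over all groups, a low gene could pass it through the group in which it was high. OAS2, a synthetase that activates RNase L, was singled out after its values were seen: it stood at 5.38 ± 2.18 normalized counts with NCA, 5.08 ± 1.88 with ASO2 and 56.4 ± 15.8 with ASO10 in SK-N-BE(2)c. It was among the 18 genes tested there only through ASO10, since its other groups lay below the minimum of 10. The ASO10 count of that line, as far as it rests on such genes, is not read as a result.

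Of 45 interferon-stimulated genes besides ISG15 and IFI6, 8 had at most 3 reads in every library, MX1, MX2, IFITM1, IFITM3 and XAF1 among them. The 4 named by the size of their change all rose with ASO10. ISG20, an exonuclease, went from 26.4 ± 3.66 to 426 ± 50.5 normalized counts in NGP with ASO10 (log2 fold change 3.96, limma adjusted p = 3.57e-16) and to 76.3 ± 6.27 with ASO2 (1.51, adjusted p = 8.38e-09). UBA7, the enzyme that activates ISG15 for conjugation, rose with ASO10 by 2.82 in SK-N-BE(2)c and 2.41 in NGP (adjusted p = 2.42e-10 and 1.79e-11). IFI35 rose with ASO10 by 1.87 (NGP) and 2.30 (SK-N-BE(2)c), and in IMR32 by 0.97 with ASO1 and 1.54 with ASO2, where its NCA mean was 7.53. That NCA mean lay below the minimum of 10, so the IMR32 values of IFI35 rest on the ASO groups in which it was high. They are not read as a result. IFI27 rose with ASO10 by 0.97 and 1.91, and had negative values that did not pass with ASO1 and ASO2 (-0.18 to -0.38).

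By count, 1 of 15 tested interferon-stimulated genes rose and 2 fell with ASO1 in IMR32, and 6 rose and 0 fell with ASO2. In NGP, 9 of 14 rose and 0 fell with ASO2 (7 and 0 scaled to the same total), and 7 rose and 2 fell with ASO10. In SK-N-BE(2)c, 9 of 20 rose and 1 fell with ASO2, and 7 rose and 3 fell with ASO10. Scaled to the same total, the splits there were 6 and 2 with ASO2 and 6 and 3 with ASO10. As shares of those tested, the rises were 6.67% and 40.0% in IMR32, 64.3% and 50.0% in NGP and, for ASO2 of SK-N-BE(2)c, 45.0%, beside 13.6% and 17.6%, 30.6% and 26.8%, and 33.6% of all genes. The 7 of 20 with ASO10 in SK-N-BE(2)c stood beside 27.8%. The falls were read beside 14.4% and 14.8%, 28.1% and 27.6%, and 33.4% and 31.1% of all genes called lower. The median log2 fold changes were -0.01 and 0.20 in IMR32, 0.34 and 0.14 in NGP and 0.37 and 0.20 in SK-N-BE(2)c. In the same RefSeq promoter table, 27 of the 38 genes of this list with a row held GAAANNGAAA or TTTCNNTTTC, beside 4.38% of all genes in it.

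**Figure D4:**
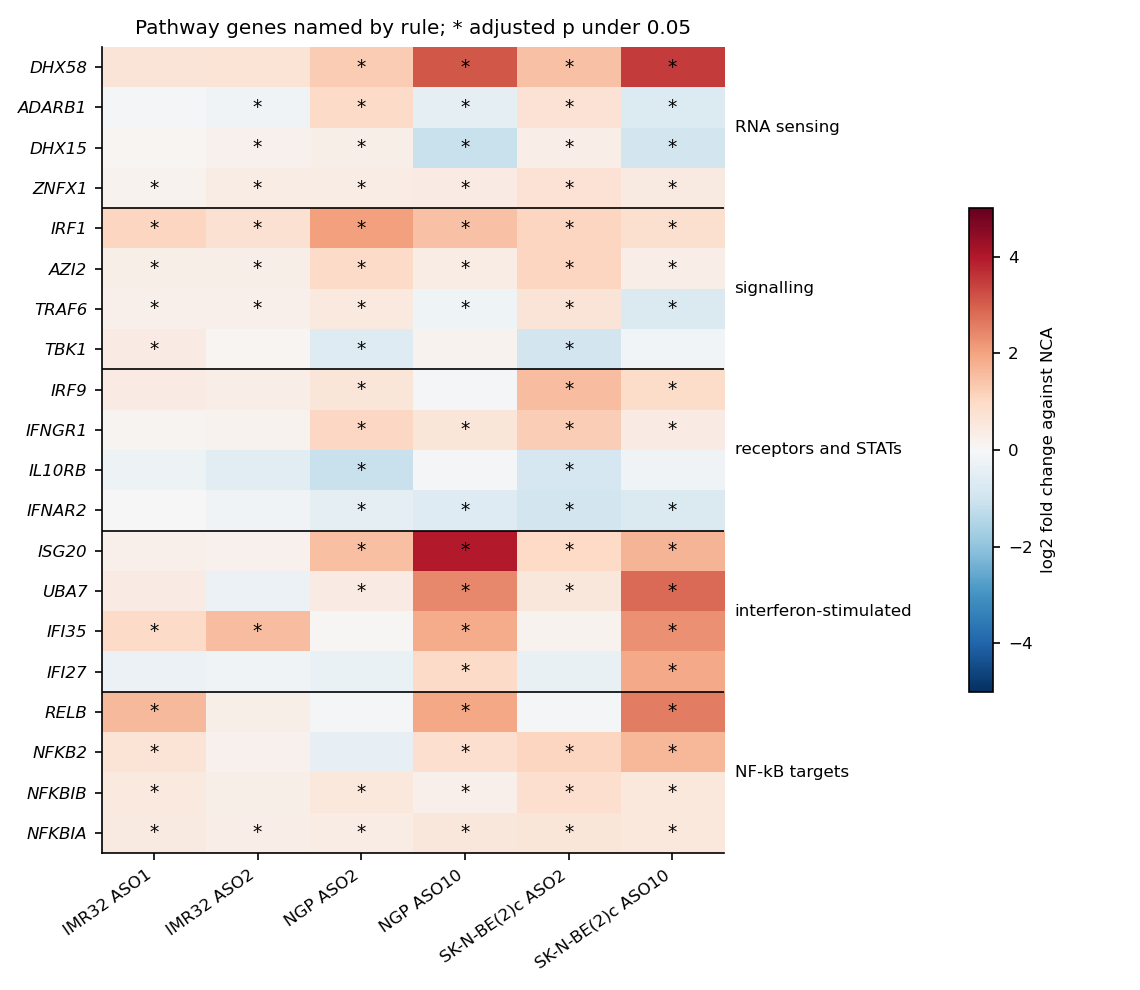
Log2 fold change against NCA (colour, from -5 in blue to 5 in red) of 20 genes, 4 from each of 5 lists (rows), in the 6 comparisons with control (columns); an asterisk marks a limma adjusted p under 0.05. DHX58, ISG20 and UBA7 have their highest values with ASO10, at 1.72 to 3.50 in SK-N-BE(2)c and 2.41 to 3.96 in NGP, and IRF1 is positive in all 6.

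Between sensor and interferon, the signalling list of 21 genes had members moving both ways. IRF1, an interferon-inducible transcription factor, rose in all 6 comparisons, by 1.07 and 0.78 in IMR32 (ASO1, ASO2), by 2.06 and 1.47 in NGP and by 1.07 and 0.81 in SK-N-BE(2)c (ASO2, ASO10), with limma adjusted p at most 0.00452. TBK1, the kinase that phosphorylates IRF3, fell with ASO2 from 780.4 ± 22.0 to 413 ± 40.2 normalized counts in SK-N-BE(2)c and from 696 ± 86.7 to 439 ± 10.5 in NGP (adjusted p = 2.52e-11 and 2.16e-07), and rose by 0.39 with ASO1 in IMR32. AZI2, an adaptor of TBK1, rose in all 6, by 0.28 to 1.06. TRAF6 rose with ASO1 and ASO2 and fell with ASO10. In all, 5 rose and 1 fell with ASO1 and 4 rose and 0 fell with ASO2 of 19 tested in IMR32 (4 and 1 with ASO2 scaled to the same total). In NGP 5 rose and 5 fell with ASO2 and 3 rose and 6 fell with ASO10 of 15. In SK-N-BE(2)c 9 rose and 7 fell with ASO2 (6 and 7 scaled to the same total) and 5 rose and 6 fell with ASO10 of 18. The list's shares in NGP with ASO2, 33.3% higher and 33.3% lower, stood beside 30.6% and 28.1% of all genes, and those in SK-N-BE(2)c with ASO10, 27.8% and 33.3%, beside 27.8% and 31.1%. The widest gap was in SK-N-BE(2)c with ASO2, at 50.0% higher beside 33.6% of all genes. In IMR32 13.6% (ASO1) and 17.6% (ASO2) of all genes were called higher, and 14.4% and 14.8% lower. In NGP with ASO10 the shares of all genes were 26.8% higher and 27.6% lower.

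Downstream receptors and STAT factors, 16 genes, moved both ways: 3 rose and 5 fell with ASO2 (2 and 6 scaled to the same total) and 1 rose and 6 fell with ASO10 of 12 in NGP, and 3 rose and 6 fell (2 and 8) and 4 rose and 6 fell of 13 in SK-N-BE(2)c. The shares of all genes called lower were 28.1%, 27.6%, 33.4% and 31.1% in that order, and those called higher 30.6%, 26.8%, 33.6% and 27.8%. IFNAR2, a chain of the type I interferon receptor, fell with ASO2 by 0.49 and 0.93 and with ASO10 by 0.63 and 0.72 in NGP and SK-N-BE(2)c (limma adjusted p at most 0.00925). IRF9, the DNA-binding part of the interferon-activated complex, rose in SK-N-BE(2)c by 1.55 with ASO2 and 0.91 with ASO10 (adjusted p = 7.03e-08 and 0.000238). IMR32 had 2 rises and 1 fall with ASO1 and 2 rises and 0 falls with ASO2 of 14 tested. The rises were 14.3% with each, near the 13.6% and 17.6% of all genes called higher, and 14.4% and 14.8% were called lower.

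NF-kB, the other arm below MAVS, was followed through 15 target genes, of which 6 were tested in IMR32 and NGP and 8 in SK-N-BE(2)c. RELB rose with ASO10 from 42.4 ± 9.34 to 251 ± 18.9 normalized counts in SK-N-BE(2)c and from 34.4 ± 11.5 to 129 ± 17.2 in NGP, and with ASO1 in IMR32 from 8.79 ± 2.04 to 29.1 ± 4.27 (log2 fold changes 2.56, 1.93 and 1.63, limma adjusted p at most 1.37e-05), whereas ASO2 gave -0.08, -0.08 and 0.31, none of them called. The IMR32 call leans on the ASO1 libraries in which RELB was high, because its NCA mean lay below the minimum of 10. It is among the 5 rises counted for ASO1 and is not read as a result. NFKBIA, the feedback inhibitor, rose in all 6 comparisons by 0.33 to 0.60. The counts of rises and falls were 5 and 0 (ASO1) and 3 and 0 (ASO2) in IMR32, 3 and 0 (ASO2; 3 and 2 scaled to the same total) and 4 and 1 (ASO10) in NGP, and 5 and 0 and 4 and 0 in SK-N-BE(2)c. From 50.0% to 83.3% of the 6 to 8 tested were called higher, beside 13.6% to 33.6% of all genes.

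Beside PKR, 3 other kinases phosphorylate the translation factor eIF2. Among these, EIF2AK1 rose with ASO2 by 0.76 in SK-N-BE(2)c and 0.69 in NGP, and EIF2AK3 by 0.80 and 0.71 (limma adjusted p at most 4.65e-08), in the same libraries in which EIF2AK2 fell. PPP1R15A, which encodes the stress-induced subunit that reverses that phosphorylation, rose in all 6 comparisons: in IMR32 from 378 ± 9.97 to 1236 ± 135 with ASO1 and to 950 ± 107 with ASO2 (1.70 and 1.32), in NGP by 0.77 and 0.41 and in SK-N-BE(2)c by 1.15 and 1.29 (ASO2, ASO10; limma adjusted p at most 0.000403). Over this list of 7 genes, which includes EIF2AK2 and so counts its own falls again, 3 rose and 1 fell with ASO1 and 5 rose and 0 fell with ASO2 in IMR32. In NGP 5 rose and 1 fell with ASO2 and 2 rose and 3 fell with ASO10, and in SK-N-BE(2)c 5 rose and 1 fell (5 and 2 scaled to the same total) and 4 rose and 2 fell (2 and 3). Of all genes, 13.6% to 33.6% were called higher and 14.4% to 33.4% lower in these comparisons.

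The DNA-sensing list of 13 genes was led by RNASEH2B, a subunit of the nuclease that clears RNA from DNA, which fell with ASO2 in every line, by 0.49 in IMR32, 1.46 in SK-N-BE(2)c and 1.08 in NGP (limma adjusted p at most 2.34e-07). With ASO10 its change was 0.00 in NGP (adjusted p = 0.995) and it fell by 0.32 in SK-N-BE(2)c (adjusted p = 0.0330). MRE11 fell by 0.56 to 0.87 in the 4 comparisons of NGP and SK-N-BE(2)c. Of 8 tested genes in NGP, 1 rose and 5 fell with each ASO, and of 10 in SK-N-BE(2)c 3 rose and 5 fell with ASO2 (2 and 6 scaled to the same total) and 1 rose and 3 fell with ASO10. In IMR32 0 rose and 1 fell with each. The falls were 62.5% of those tested with each ASO in NGP (28.1% and 27.6% of all genes), 50.0% and 30.0% for SK-N-BE(2)c (33.4% and 31.1%) and 12.5% with each in IMR32 (14.4% and 14.8%).

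The genes whose levels followed each member most closely were found by Pearson correlation of log2 values, centred within each line, over the 30 libraries and 11594 genes tested in all lines. These libraries share groups and depth, so the correlations describe the pattern and carry no test. ADAR had r of 0.98 with SMC1A, DDX42 and COPA, and 392 genes had r above 0.9 with it. MAVS was most like CDC25B, GLI2 and TTC17 (r = 0.95 each), with 91 genes above 0.9. EIF2AK2 came with CLNS1A, SEPTIN2 and FKBP5 (r = 0.92, 0.92 and 0.92), and IRF3 with FHIP2B, PANK4 and B4GALNT4 (r = 0.92, 0.91 and 0.89). For IFI6 no gene exceeded 0.66, with BET1L first. Among the members, ADAR and IRF3 had r of -0.85 and ADAR and MAVS 0.69, while EIF2AK2 had at most 0.28 with any other.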

How the data were processed

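RNA sequencing libraries of 3 neuroblastoma lines (30 libraries, 9 groups) were compared within each line. The deposited values are normalized counts, treated as a signal: gene counts that the authors divided by 1 size factor per library, per the labels. Per the submitters' processing notes, the tools named are FastQC 0.11.8, cutadapt 1.18, STAR 2.6.0, HTSeq 0.6.1 and DESeq2 1.42.0 with hg19/GRCh37. The strand setting, the annotation and the kit of each library are not given in the sources used here. The steps between low values gave the reads of each library, with 100% of values whole within 0.01; in SK-N-BE(2)c NCA replicate 2 the step was close to 1 read, so this check says little there. Columns left unused numbered 0.

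Tests used limma 3.58.1 (R 4.3.3) on log2(value + 1), with a variance trend, all groups of a line in 1 fit and genes with a mean of at least 10; the ASO2 and ASO10 effects were compared between SK-N-BE(2)c and NGP in 1 fit of both lines. Adjusted p-values (Benjamini-Hochberg, over all genes tested) under 0.05 were called. Self-tests on simulated data recovered most of the changes put in. Those changes were all of the same size and were placed only in well-covered genes. The self-tests therefore say nothing about smaller changes or genes near the floor. Alternatives were other pseudocounts (0.5, 5), level minima, scalings, edgeR 4.0.16 and DESeq2 on the recovered reads, a replicate block and leaving out each library. Pairs of same-numbered libraries did not all deviate together in any pair of groups (lowest correlation at most 0.0549), so no block was used. The members and lists were chosen with earlier results of these data known. Named are all 9 members; from each other list, up to 4 genes with the largest mean absolute log2 fold change over the 6 comparisons with NCA; and the 3 genes most like each member. Levels of genes used the authors' scaling, which was joint for NGP and SK-N-BE(2)c.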

Additional observations from a re-analysis of the deposited data

Results flagged for a closer look

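Among 23 groups of 4 libraries tested for a library far from the others, 3 held one, and chance alone gives about 1 in 20. EIF2AK2 in IMR32 with ASO2 had its highest library at 1261 normalized counts (replicate 1), against a median of 1042. ADAR in IMR32 with NCA was at 5903 in replicate 1 (median 5537), and MAVS in IMR32 with ASO2 at 787 in replicate 4 (median 848). The effect of ASO10 differed between SK-N-BE(2)c and NGP for ADAR by 0.19 and for MAVS by 0.45 on the log2 scale, by limma's test of the difference. Both calls were fragile. Several alternatives ended them, among them leaving out SK-N-BE(2)c NCA replicate 3 (limma adjusted p = 0.0781 for ADAR and 0.0831 for MAVS).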

How the results depend on the processing

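Of 63 member changes tested, 29 were called, and no alternative reversed a called change. From 16.7% to 67.0% of all tested genes were called in these comparisons, which share libraries. The count of 29 is therefore not a result about the members. With no level minimum, members called went from 1 to 2 in IMR32 with ASO1, IFIH1 added on 5 reads (10.1% of all genes called). For the difference of ASO10 effects between SK-N-BE(2)c and NGP they went from 2 to 1: ADAR and MAVS were both lost (adjusted p = 0.0548 and 0.0640) and ISG15 entered. That ISG15 call rests on the NGP ASO10 libraries in which ISG15 was high, so it is not read as a result. With libraries scaled to the same total, IMR32 with ASO2 had 2 called, ADAR added (log2 fold change -0.10, adjusted p = 0.0384). TMM scaling gave 1 and edgeR on the recovered reads 1 for the ASO10 difference. Leaving out 1 library at a time gave 0 to 2 members for that difference, 2 to 4 for NGP ASO2 against ASO10, 3 to 4 for ASO2 against NCA in SK-N-BE(2)c and likewise in NGP, and 2 to 4 for NGP ASO10 against NCA. A replicate block gave the same count of members called in every comparison (1, 1 and 2 in IMR32, 4, 4 and 4 in SK-N-BE(2)c, 4, 3 and 4 in NGP, 0 and 2 for the differences), and the replicate numbers mark no stated pairing. The cause of these changes was not tested. Members under about 10 reads are limited by depth.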
